A study of Mus musculus with 2 samples.

Results

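The miR-29 family comprises the guide strands mmu-miR-29a, mmu-miR-29b and mmu-miR-29c, the 3 of 696 mouse miRNAs on the array that carry these names. They were taken by name and not by a rule on their signals, although earlier results of these data were known when the family was chosen. Agilent miRNA arrays of 1 colour (Cy3) compared a pair of tissues from ICR mouse embryos at E13.5. The first was the 3rd mammary gland, called the gland here. The second was the inter mammary gland region, the stretch of flank between the 3rd and the 4th gland, which served as the control and is called the flank here. The embryos received no treatment, and their number, sex and pooling are not given in the sources used here. Total RNA of each region (100 ng) was labelled and hybridized to 1 array, so there are no biological replicates and no test between the regions was made. An SD below is the spread over spots of 1 array, and the SE of a ratio combines the spots of both arrays. The errors of the software's totals are those the software gives. None of these errors covers differences between embryos. Each RNA sample is a piece of tissue, in which fewer cells of a type and less miRNA per cell cannot be told apart.

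miRNAs are short RNAs that pair through their seed, bases 2 to 8, with messenger RNAs and lower the amount of protein made from them. The miR-29 family is best known for its targets in the extracellular matrix, which include fibrillar collagens, elastin, fibrillin and laminin chains, and it also targets the DNA methyltransferases Dnmt3a and Dnmt3b. In breast epithelium the family is known as a target of GATA3, a transcription factor of the mammary gland. At E13.5 the epithelial bud lies within a dense mammary mesenchyme, a tissue that lays down matrix.

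The mature sequences are shown because they set what a probe can tell apart. They are those of RefSeq for assembly GRCm38.p6, in which all 3 names were found with the ending 3p. The seed is in capitals.
mmu-miR-29a: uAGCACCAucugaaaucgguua
mmu-miR-29b: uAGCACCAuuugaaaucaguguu
mmu-miR-29c: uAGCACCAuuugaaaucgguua
All 3 share the seed AGCACCA, and among 1679 mature mouse names in this RefSeq table these 3 alone held it. Counted from 1 at the 5′ end, miR-29a differed from miR-29c by C10U only, so that 21 of 22 bases were identical. miR-29b differed from miR-29c by A18G, G21U and U22A, and it has 1 base more, 23 against 22. The tail of miR-29b is known to carry it into the nucleus. The files do not give the bases of the probes, so how far the signal of one member includes that of another was not tested.

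The members come from 4 hairpins in 2 clusters, with the mature part in capitals here.
Mir29a: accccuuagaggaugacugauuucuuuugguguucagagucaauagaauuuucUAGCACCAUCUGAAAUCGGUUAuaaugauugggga
Mir29b-1: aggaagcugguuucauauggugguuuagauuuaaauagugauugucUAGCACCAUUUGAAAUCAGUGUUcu
Mir29b-2: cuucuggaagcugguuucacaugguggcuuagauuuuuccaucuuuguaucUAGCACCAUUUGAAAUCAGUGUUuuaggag
Mir29c: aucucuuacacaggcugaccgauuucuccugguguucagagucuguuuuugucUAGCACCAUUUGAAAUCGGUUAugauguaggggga
In GRCm38.p6 the mature miR-29a lies at chr6:31062673-31062694 and that of Mir29b-1 at chr6:31063025-31063047, both on the minus strand, with 275 bases between the hairpins. RefSeq lists no other gene over these hairpins, and the nearest genes that are not miRNAs are the long noncoding RNAs Gm40359 and Lncpint. The mature sequence of Mir29b-2 lies at chr1:195037091-195037113 and that of miR-29c at chr1:195037600-195037621, both on the plus strand, with 426 bases between the hairpins and within the noncoding gene A330023F24Rik. Mir29b-1 and Mir29b-2 give the same mature miR-29b, so its probes cannot tell the 2 clusters apart. The header of the array files names an earlier build, mm9, and these coordinates are not of that build.

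Each member was read by 2 probes of 10 spots each, 60 spots per array, of which 59 on each array were used after outlier spots were left out. Signals are brightness after background subtraction, in the scanner's linear units. By the flag of the scanner software 24 of the 59 spots were well above background in the gland and 28 in the flank. Detection of a probe required this flag on more than 50% of its spots, and detection of a miRNA required 1 such probe or more. By this rule miR-29c was detected in both regions, miR-29a in the flank only, and miR-29b in neither. Over all miRNA spots 38.1% passed the flag on each array. The same rule detected 296 of the 696 miRNAs in the gland and 300 in the flank. Of the family, miR-29c alone gave a ratio between 2 detected signals. Spots that should bind nothing, the negative controls, averaged 3.81 ± 5.28 (SD, 432 spots) in the gland and 2.23 ± 5.07 (SD, 428 spots) in the flank, and none of them exceeded 17.3 in the gland or 19.2 in the flank. The flag began at 28.9 on the first array and 27.9 on the second, so spots of the members at 28.4 (gland) and 27.2 (flank) fell just short, and spots at 29.7 and 29.2 just passed.

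**Figure D1:**
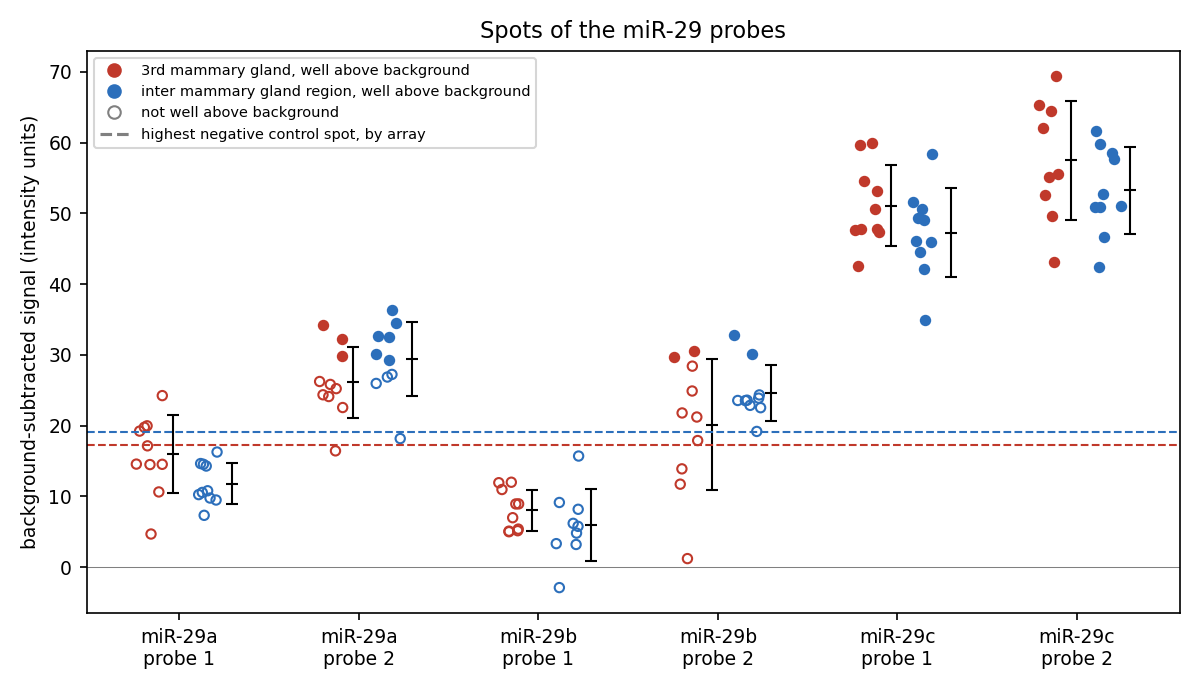
Background-subtracted signal of every spot of the miR-29 probes (vertical axis, linear intensity units), by probe and region, with outlier spots left out. Filled points are well above background and open points are not, bars show the mean ± SD over spots, and dashed lines mark the highest negative control spot of each array (17.3 and 19.2). All spots of miR-29c are filled in both regions, and all spots of the first probes of miR-29a and miR-29b are open.

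miR-29c was the brightest member and the only one detected in both regions. On its first probe the spots ran from 42.6 through a median of 49.2 to 59.99 in the gland, with a mean of 51.1 ± 5.68 (SD over 10 spots). In the flank the same probe ran from 34.9 through 47.6 to 58.4, with a mean of 47.3 ± 6.25 (SD over 10 spots). The second probe ran from 43.1 through 55.6 to 69.4 in the gland, with a mean of 57.5 ± 8.46 (SD over 9 spots), and from 42.4 through 51.9 to 61.7 in the flank, with a mean of 53.2 ± 6.12 (SD over 10 spots). Every one of these spots was well above background and brighter than every negative control spot, and on both probes the spots of the regions overlapped over most of their range.

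Before any scaling, both probes of miR-29c were slightly brighter in the gland, with a quotient of 1.08 on each. To scale the arrays, each signal was divided by the upper quartile (75th percentile) of those probes that both arrays detected, 786.4 in the gland and 718.5 in the flank, a step that lowers the gland by a factor of 1.09 relative to the other array. After it the quotients of the probes were 0.988 and 0.987, and the log2 ratio of miR-29c, gland over flank, was -0.019 ± 0.060 (SE over spots). The 95% interval from the spots ran from 0.910 to 1.07 as a ratio, which is less than 1.5-fold either way but covers the error of spots only. Of the spots measured at the same place on both arrays, 4 of 10 on the first probe and 3 of 9 on the second were brighter in the gland after scaling, whereas without scaling 7 of 10 and 7 of 9 were. Under this scaling the signals of miR-29c, 0.069 in the gland and 0.070 in the flank, did not differ beyond the spread over spots. Both were dim, far below the upper quartile by which the signals were divided. Under 4 other settings of the scaling, no scaling among them, the log2 ratio was above 0, from 0.10 to 0.14, and beyond the upper end of that interval, which is 0.098 on the log2 scale.

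Of the 284 miRNAs detected on both arrays, 2.11% were at least 1.5-fold higher in the gland and 9.15% at least 1.5-fold lower. Of the miR-29 members, 1 was among these 284 and 0 passed 1.5-fold in either direction. From the highest ratio down, miR-29c stood at place 173 of the 284. Their median log2 ratio was 0.05 and the middle 50% ran from -0.14 to 0.22, a range that holds the value of miR-29c.

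**Figure D2:**
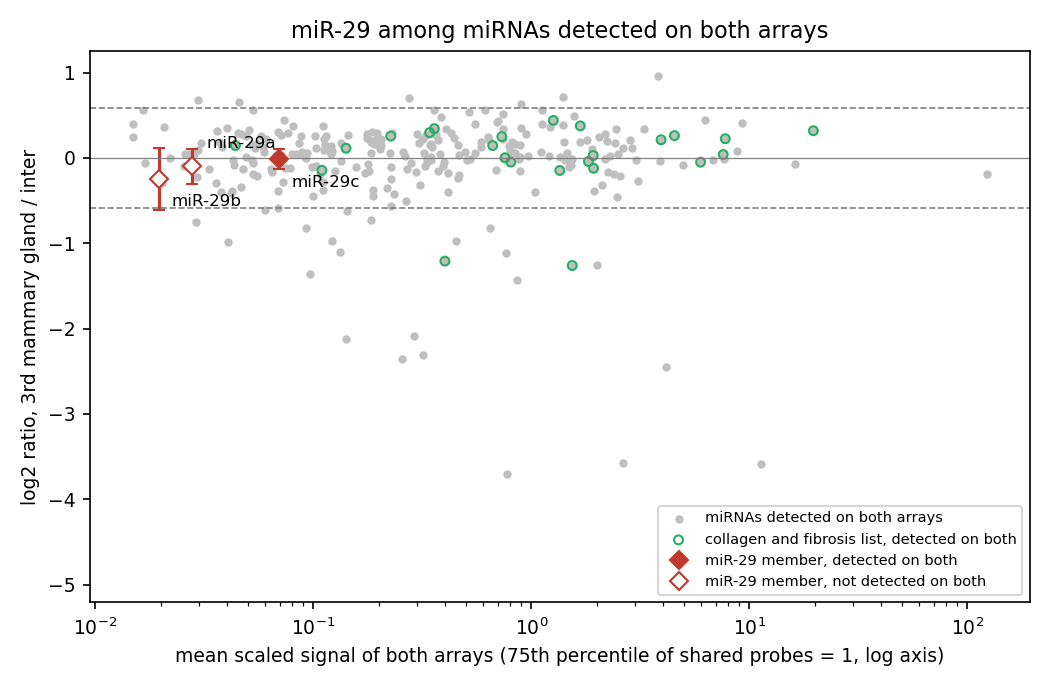
log2 ratio of the gland over the flank (vertical axis) against the mean scaled signal of both arrays (log axis) for the 284 miRNAs detected on both arrays (grey), the collagen and fibrosis list among them (green circles) and the miR-29 members (diamonds, open where not detected on both arrays, bars 95% interval from the spots). Dashed lines mark 1.5-fold, and miR-29c (-0.02) lies between them, while the open diamonds of miR-29a and miR-29b plot signals that were not detected on both arrays and give no fold.

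miR-29a, which differs from miR-29c by the base named above, was read at the edge of detection, and its probes went in opposite directions. The first probe ran from 4.69 through a median of 15.9 to 24.2 in the gland and from 7.33 through 10.68 to 16.3 in the flank. Its means were 15.9 ± 5.51 and 11.8 ± 2.91 (SD over 10 spots each), and 0 of its spots were well above background on either array. The second probe ran from 16.4 through 25.5 to 34.3 in the gland and from 18.2 through 29.6 to 36.4 in the flank. Its means were 26.1 ± 5.08 and 29.4 ± 5.22 (SD over 10 spots each), with 3 and 6 of 10 spots well above background, and it alone put miR-29a past the rule for detection in the flank. After scaling the log2 ratio was 0.30 ± 0.19 on the first probe and -0.30 ± 0.12 on the second (SE over spots), and the spots of the regions overlapped on both. Of the spots at the same place on both arrays, 7 of 10 on the first probe and 1 of 10 on the second were brighter in the gland after scaling. The mean signal of miR-29a in the gland was below the dimmest detected probe there, which was also above the scaled signal of the flank, so no fold is given for miR-29a.

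miR-29b was not detected in either region. Its first probe ran from 5.01 through 7.97 to 12.0 in the gland and from -2.88 through 5.77 to 15.7 in the flank, within the range of the negative controls, with 0 spots brighter than the highest of them and means of 8.04 ± 2.90 (SD over 10 spots) and 5.94 ± 5.05 (SD over 9 spots). Its second probe ran from 1.22 through 21.5 to 30.6 in the gland, with a mean of 20.1 ± 9.24 (SD over 10 spots), the widest spread of the members' probes. In the flank it ran from 19.2 through 23.6 to 32.8, with a mean of 24.6 ± 3.92 (SD over 10 spots), and on each array 2 of its 10 spots were well above background. On this probe 7 of 10 spots in the gland and 10 of 10 in the flank were brighter than every negative control spot of their array. The scaled log2 ratio was 0.31 ± 0.44 on the first probe and -0.42 ± 0.22 on the second (SE over spots), so the probes of miR-29b were also on opposite sides of 0. After scaling 7 of 9 matched spots on the first probe and 4 of 10 on the second were brighter in the gland. With neither signal detected, no fold is given for miR-29b.

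The first probes of miR-29a and miR-29b were the dimmest of the family, and both were brighter in the gland before scaling, by 4.13 and 2.10 units. The mean of the negative control spots was higher there by 1.58 units. The second probes were brighter in the flank, with a difference, gland minus flank, of -3.27 units for miR-29a and -4.51 for miR-29b. The part of the array's background in these differences was not tested. With the mean of the negative controls subtracted from each array, a step chosen after the data were examined, the log2 ratio of miR-29c was -0.06. In this setting the value of miR-29a was -0.22, against -0.10 without the step, and that of miR-29b was -0.47, against -0.25. No direction is read from the values of miR-29a and miR-29b.

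The scanner software also gives a total signal for each miRNA, summed over the probes it counts, and its own call of detection, which is less strict than the rule above. By that call all 3 members were present in both regions. The total of miR-29c was 71.9 (error 7.45) in the gland and 65.1 (error 6.91) in the flank. That of miR-29a was 17.3 (error 4.20) and 19.03 (error 4.10), and that of miR-29b 13.3 (error 4.09) and 16.0 (error 3.96). For each member the totals of the regions differed by less than the sum of their errors. For miR-29c the total is the sum of both probes, whereas for miR-29a and miR-29b it equals the total of the second probe alone, so the first probe, which went the other way, does not enter it. Without scaling the quotients of these totals were 1.105 for miR-29c, 0.909 for miR-29a and 0.835 for miR-29b. Signals of different probes cannot be set against each other as amounts of RNA, so the order miR-29c, miR-29a, miR-29b is one of brightness only.

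**Figure D3:**
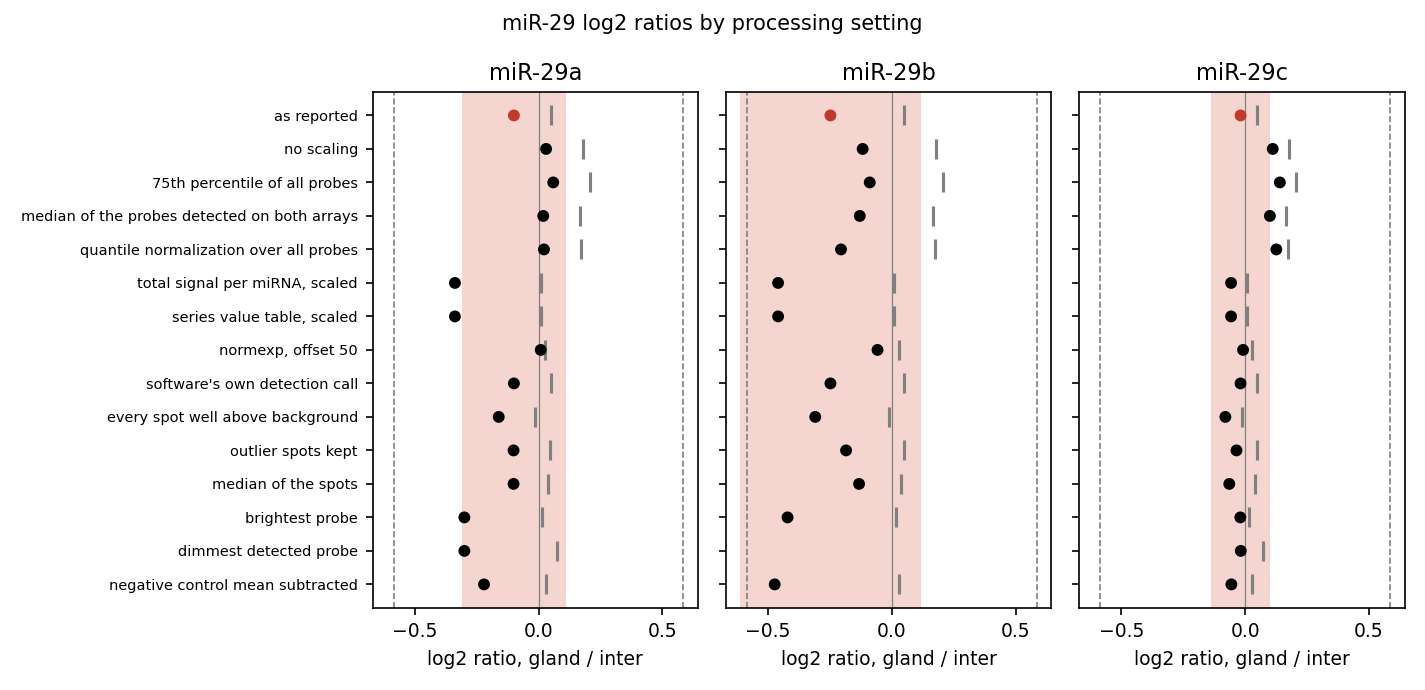
log2 ratio of the gland over the flank (horizontal axis) for each miR-29 member under each processing setting (rows). The value as reported is in red, grey bars show the median of all miRNAs detected on both arrays under the same setting, the shaded band is the 95% interval from the spots, and dashed lines mark 1.5-fold. The points of miR-29c lie on both sides of 0 and between the lines of 1.5-fold, and those of miR-29a and miR-29b rest on signals not detected on both arrays and are shown as values with no direction read from them.

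The sign of the log2 ratio of miR-29c therefore depended on the scaling. With no scaling it was 0.11, and when the 75th percentile was taken over all probes it was 0.14. The median of all miRNAs detected on both arrays moved with it, from 0.05 as reported to 0.18 and 0.21. Relative to that median, miR-29c was lower by 0.07 under each of these scalings (log2 difference -0.07). That sameness is fixed by construction, since each of them divides a whole array by 1 factor. Over all settings the difference from the median ran from -0.10 to -0.03. No setting brought miR-29c past 1.5-fold.

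The passenger strands of the same hairpins, mmu-miR-29a*, mmu-miR-29b* and mmu-miR-29c*, were read by 4, 4 and 2 probes. Of their 20 spots each, 0 were well above background in either region, 0 were brighter than every negative control spot of their array, and the software listed all 3 at its stand-in of 0.1.

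By a rule on likeness, the 3 other miRNAs detected on both arrays with the log2 ratio nearest to that of each member were found among those of a mean signal within 2-fold of it. For miR-29c these were miR-1198 (-0.02), miR-669l (-0.03) and miR-455 (-0.03), out of 80 candidates. For miR-29a they were miR-674 (-0.10), miR-299 (-0.09) and miR-32 (-0.13), out of 45, and for miR-29b miR-138 (-0.22), miR-466c-5p (-0.30) and miR-99b* (-0.30), out of 22. The rule itself makes these differences small, the likeness rests on 1 ratio each, and for miR-29a and miR-29b it is likeness to signals that were not detected on both arrays.

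Other miRNAs known for acting on collagen, connective tissue growth factor or fibrosis were taken as a list of 25. On both arrays 24 of them were detected, all but miR-145. Of these 24, 0 were at least 1.5-fold higher in the gland (2.11% of all miRNAs detected on both) and 2 were at least 1.5-fold lower (9.15% of all). The 2 were miR-133a, 2.31-fold lower with a log2 ratio of -1.21 ± 0.035 (SE over spots), and miR-133b, 2.40-fold lower with -1.26 ± 0.033. Both are made in striated muscle and also belong to the muscle markers. All 4 muscle markers, miR-1, miR-133a, miR-133b and miR-206, were lower in the gland, with log2 ratios from -1.43 to -1.12, and their summed scaled signal was 2.09 there and 5.02 in the flank. The part of the muscle content in the values of miR-133a and miR-133b was not tested.

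The other members of the list lay closer together. Their median, miR-133a and miR-133b included, was a log2 ratio of 0.13, beside 0.05 for all 284. The highest was miR-30c, a miRNA known to lower connective tissue growth factor, at 0.44 ± 0.025 (SE over spots). The mesenchymal miRNAs of the list, miR-199a-5p, miR-199a-3p and miR-214, had log2 ratios of 0.22, 0.32 and 0.26. miR-21, which is known to rise in fibrosis, was at 0.027 ± 0.036, and let-7g, which targets a collagen chain, at -0.043 ± 0.045. The value of miR-29c, -0.02, lay between those of miR-21 and let-7g. Both were named after their values were seen, so no likeness is read from this.

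**Figure D4:**
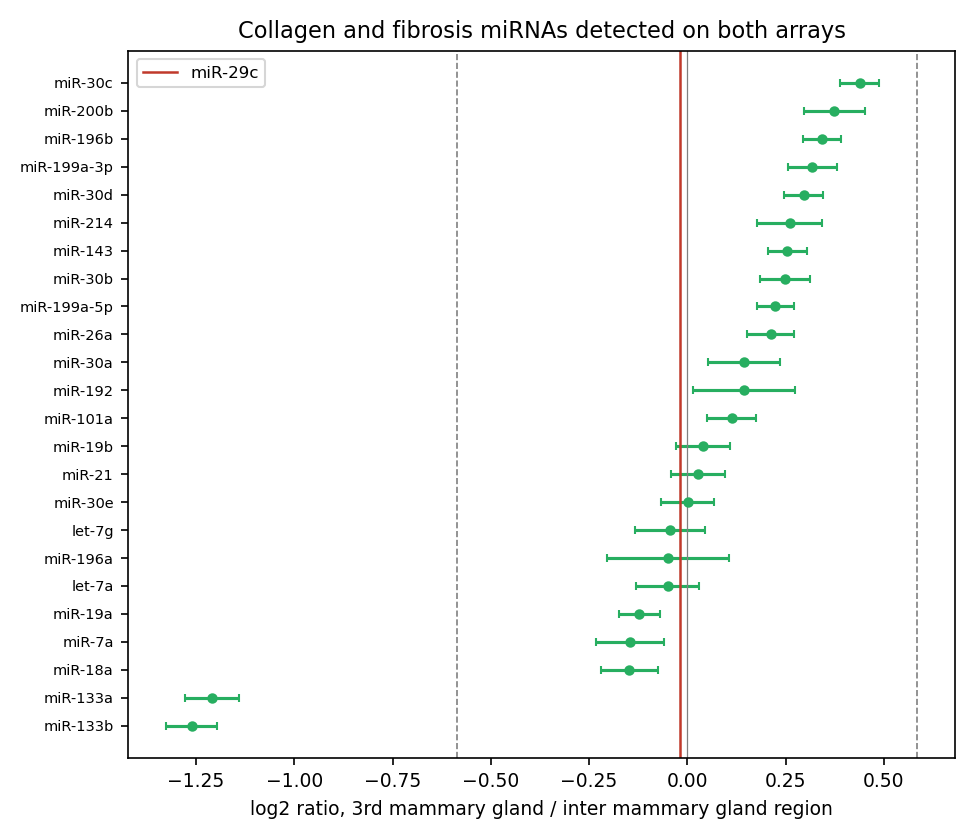
log2 ratio of the gland over the flank (horizontal axis) for the 24 miRNAs of the collagen and fibrosis list detected on both arrays, in order of ratio, with the 95% interval from the spots. The red line is miR-29c (-0.02) and dashed lines mark 1.5-fold, which miR-133a (-1.21) and miR-133b (-1.26) pass.

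Markers of the tissues were present as follows. The 7 epithelial markers were detected in both regions, with log2 ratios from -0.31 (miR-203) to 0.51 (miR-200a) and 5 of the 7 above 0. The median log2 ratio of the 7 was 0.34, beside 0.05 for all 284 miRNAs detected on both arrays. Their summed scaled signals were 13.9 in the gland and 13.3 in the flank. Of these sums miR-205, with a log2 ratio of -0.02, made up 6.78 and 6.88. The 3 of 4 mesenchymal markers matched by name summed to 35.1 and 28.8. The sums were 2.75 and 2.64 for the 2 endothelial markers, and 7.40 and 5.504 for the 3 blood markers, of which miR-451 made up most (7.23 and 5.32) and miR-486 went the other way, with a log2 ratio of -0.39. Of 4 neural markers only miR-128 was detected, with a log2 ratio of -0.57, while miR-9, miR-124 and miR-137 were detected in neither region. The undetected signals of miR-9 and miR-137 gave log2 ratios of 1.04 ± 0.24 and 1.08 ± 0.16 (SE over spots). No direction is read from these, and miR-124 had no ratio. The summed scaled signals of the 4 neural markers were 0.236 in the gland and 0.295 in the flank. Of these sums miR-128 made up 0.183 and 0.272, and the other 3 signals in them were undetected. The paper reports miR-137 as raised in the gland on its miRNA array, the source of these data, and as highly expressed there by in situ hybridization. The rise it gives is far larger than the quotient of the undetected signals here, 2.12. What makes these values differ was not tested. Over all miRNA spots 38.1% passed the flag on each array and 0 were saturated, and the rule for detection found 296 miRNAs in the gland and 300 in the flank. The part of tissue content in the values of the miR-29 members was not tested.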

How the data were processed

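Images of the arrays were read by the authors with Agilent's Feature Extraction 10.7.3.1, per the file headers, which subtracts the background. The deposited spot signal is an intensity on a linear scale, not normalized between arrays. The deposited value table holds the software's total intensity per miRNA, with 0.1 where it called none. The methods name GeneSpring but give no scaling.

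Left out were controls and outliers, the latter 1.67% of miRNA spots in the gland and 2.51% in the flank. Spots of a probe were averaged, arrays were scaled by their upper quartile (75th percentile) over shared detected probes, and probes of a miRNA were averaged. The SE was propagated from the SD over spots. With 1 array per region no test was run, and this number limits the precision. The steps were run on simulated spots, with changes planted only in miRNAs detected on both arrays. That run does not cover signals below detection, such as those of miR-29a and miR-29b. Named miRNAs were the members, their passenger strands, listed miRNAs past 1.5-fold, and the 3 nearest ratios per member. List members under 1.5-fold that the text names (miR-30c, miR-199a-5p, miR-199a-3p, miR-214, miR-21, let-7g and miR-205, and the ends of the marker ranges) were chosen after their values were seen. The members and lists were chosen with earlier results of these data known. Alternatives covered scaling, signal, detection, outliers, spots and probes. Python 3.11.15, numpy 2.4.6, pandas 2.3.3, matplotlib 3.10.9, R 4.3.3 and limma 3.58.1 (normexp, offset 50) were used.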

Additional observations from a re-analysis of the deposited data

How the results depend on the processing

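Under 14 settings, 1 of them chosen after the data were examined, 0 members detected on both arrays passed 1.5-fold. Only 1 member was counted in each setting except the software's own call, which counted 3. As reported, 2.11% of all 284 miRNAs detected on both arrays were at least 1.5-fold higher in the gland and 9.15% lower. The count of 0 at 2-fold follows from that at 1.5-fold and adds nothing. The log2 ratio of miR-29c ran from -0.08 to 0.14 and left its 95% interval over spots with no scaling (0.11), with the 75th percentile taken over all probes (0.14), with the median of shared detected probes (0.10) and after quantile normalization (0.13). The family median equals that of miR-29c in these settings. With the software's own call, which adds miR-29a and miR-29b, it was -0.10. The value of miR-29a ran from -0.34 to 0.06 and left its interval when the software's totals, or the deposited table, replaced the spots (-0.34 for each). That of miR-29b ran from -0.47 to -0.06. No direction is read from either, since they were not detected in both regions and the probes of each had opposite signs. The setting of the dimmest detected probe could not give it a value, since none of its probes was detected. The median of the collagen and fibrosis list, 0.13, was 0.26 with no scaling, 0.29 with that percentile over all probes, 0.25 with the median of shared detected probes, 0.29 after quantile normalization, 0.05 (0.049) after normexp and 0.04 (0.040) with the brightest probe. No scaling, the percentile over all probes and the median shift all miRNAs by 1 factor by construction. The total of miR-29a equals that of its second probe alone. The normexp setting adds an offset of 50 to every signal, which by construction draws ratios of dim signals toward 0. What else acts in these 2 settings, and the cause for quantile normalization and the brightest probe, was not tested. Signal over background limits miR-29a and miR-29b, of which 3 and 2 of 20 spots passed the background flag in the gland. No paired analysis was possible because gland and flank have 1 array each.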
